A study of Mus musculus with 15 samples.

Results

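The 9 mouse peripheral T cell lymphomas of this series were parted by their level of Cd3e, which encodes the epsilon chain of the CD3 complex. The members were chosen by the deposited Cd3e signal, which lay below 1024 in 3 lymphomas, mPTCL 3, 4 and 5, and at or above it in 6, mPTCL 1, 2, 6, 7, 8 and 9, out of 15 arrays in all. The Cd3e signal was 51.4 in mPTCL 3, 23.0 in mPTCL 4 and 523.8 in mPTCL 5, the member just inside the threshold. On the other side the lowest value was 1839.4, in mPTCL 6, and the highest 4965.3, in mPTCL 9, against 2098.4 to 3099.6 in the 6 arrays of normal T cells. These values describe how the sets were made and carry no test. An array measures RNA, so that the gene itself was lost cannot be read from it, and mPTCL 5 kept a Cd3e signal well above the other members. The sets are therefore called Cd3e-low and Cd3e-high.

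All lymphomas arose from p53KO T cells injected into syngeneic C57BL/6 hosts of the CD3KO genotype, and the lymphoma cells were sorted from the liver. CD3-deficient hosts lack T cells of their own and keep B cells, NK cells and myeloid cells. The normal arrays are 3 of resting and 3 of in vitro activated T cells from p53 KO C57BL/6 mice of 5 weeks. Loss of p53 was thus shared by the T cells of every group, but not necessarily by host cells in the sorted samples. The p53 gene was not analysed here. The labels number the lymphomas without naming animals, hence p-values measure the spread between these samples. For these mice the labels state neither the age of the hosts nor the antigen markers used for sorting.

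CD3 epsilon pairs with the delta and gamma chains, and these dimers together with the zeta chain (Cd247) carry the T cell receptor to the cell surface and pass its signal on. When the receptor is engaged, the kinases Lck and Fyn phosphorylate motifs of the CD3 and zeta chains, Zap70 docks there, and adaptors such as Lat and Skap1 spread the signal. Cytotoxic T cells and NK cells also carry receptors that signal through other adaptors with the same kind of motif, among them Tyrobp and Fcer1g, with the kinase Syk.

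Differences are given on the log2 scale as the mean of the Cd3e-low set minus that of the Cd3e-high set, ± the standard error, with Benjamini-Hochberg adjusted p-values of limma over 11049 genes. Signals below 32 were set to 32, which is 5 on the log2 scale. Levels are listed in the order mPTCL 3, 4 and 5, and for the 6 Cd3e-high lymphomas as the lowest, the median and the highest. A difference is a lower bound where the lower set has arrays at the floor and the other has none there. A gene was called when its adjusted p was under 0.05 and its difference at least 2-fold.

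Genes of cytotoxic effector cells, of the first steps of T cell receptor signalling and of the cell cycle stood among the genes called lower in the Cd3e-low lymphomas. Among 11049 genes tested, 364 (3.29%) were called lower and 216 (1.95%) higher, and with each array centred on its median, which moved the median difference of all genes from 0.03 to -0.27, the counts were 723 and 129. The share of calls that were lower went from 62.8% to 84.9% with that centring. Most calls lay close to the threshold, 519 of 580 having an adjusted p above 0.03. Without mPTCL 2 the counts were 7 lower and 0 higher, without mPTCL 4 they were 11 and 0, and without mPTCL 8 again 7 and 0. In these 3 fits of limma 1154, 728 and 1108 genes were higher at an unadjusted p under 0.05. Leaving out mPTCL 5 gave 94 and 79, mPTCL 6 gave 65 and 20, mPTCL 7 gave 214 and 83, mPTCL 1 gave 408 and 374, mPTCL 3 gave 544 and 263 and mPTCL 9 gave 376 and 157. The sets did not overlap in 886 genes lower in the Cd3e-low lymphomas (8.02% of those tested) and 685 higher (6.2%), called or not. The genes named below as called are calls of the fit with all 9 lymphomas, of which only the 7 genes described next were also called without mPTCL 2. The shares of 3.29% and 1.95% are the background for each count of list members below, and a single call in a list is no result about that list.

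**Figure D1:**
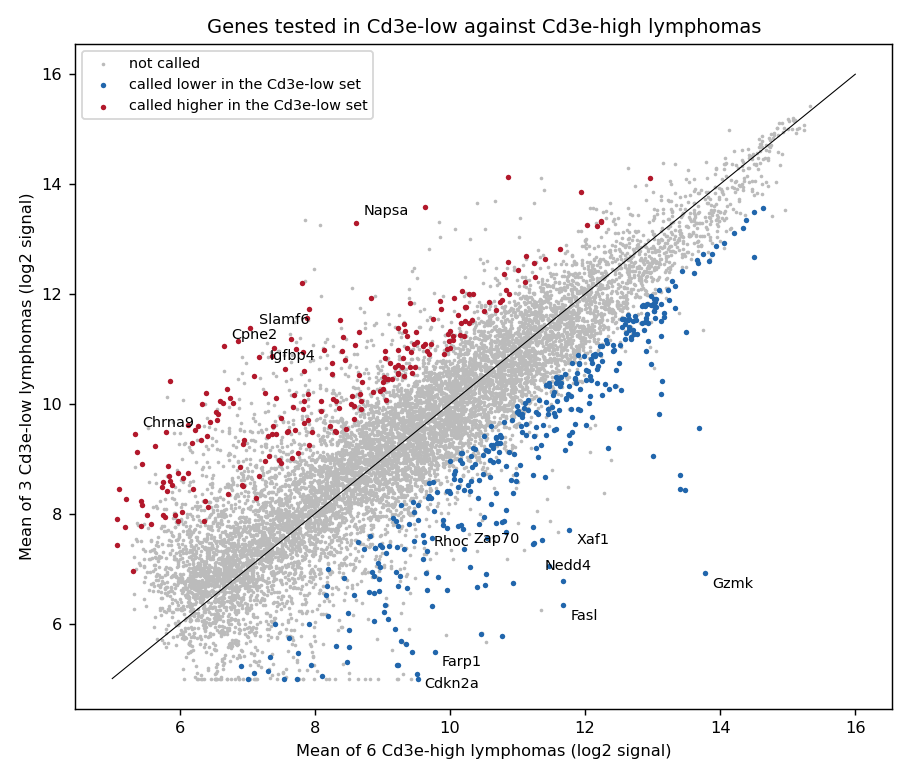
Mean log2 signal of each of the 11049 genes tested in the 3 Cd3e-low lymphomas (vertical axis) against the 6 Cd3e-high lymphomas (horizontal axis). Genes called lower in the Cd3e-low set are blue (364), those called higher red (216) and the rest grey, and the line marks equal levels; Gzmk lies farthest below the line among the named genes.

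7 genes, all lower in the Cd3e-low set, were called in every one of the 9 fits that each left out 1 lymphoma: Gzmk, Fasl, Cdkn2a, Farp1, Xaf1, Nedd4 and Rhoc. Gzmk, a granule protease of effector and memory T cells, was at 5.00, 6.92 and 8.84 in the Cd3e-low set and at 12.19, 14.19 and 14.77 in the Cd3e-high set. The difference of -6.86 ± 0.80 (adjusted p = 0.00895) corresponds to at least 116-fold, since mPTCL 3 was at the floor. Normal T cells, at 8.47 to 9.66, lay below every Cd3e-high lymphoma and overlapped mPTCL 5. Fasl, the death ligand by which T cells and NK cells kill through the receptor Fas, was at 6.26, 5.44 and 7.30 against 10.02, 11.85 and 12.57, a difference of -5.34 ± 0.55 (adjusted p = 0.00476). Normal T cells, at 8.60 to 9.72, were above every Cd3e-low and below every Cd3e-high lymphoma for Fasl.

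Cdkn2a encodes the cell cycle inhibitors Ink4a and Arf, the latter of which restrains Mdm2, the main antagonist of p53. It was at 5.00, 5.00 and 5.27 in the Cd3e-low set, with mPTCL 3 and 4 at the floor, and at 8.57, 9.42 and 10.48 in the Cd3e-high set, a difference of -4.42 ± 0.47 (adjusted p = 0.00478). The Cd3e-low lymphomas thus lay in the range of normal T cells, 5.00 to 5.97, and the Cd3e-high lymphomas above it. Farp1, which encodes a guanine nucleotide exchange factor, had the smallest adjusted p of the comparison (0.00341), with 5.00, 6.31 and 5.15 against 9.44, 9.68 and 10.46. Resting T cells were at 5.21 to 6.23 and activated ones at 8.07 to 8.44 for Farp1. Genes were tested only at a signal of 100 or more in at least 3 lymphomas. No Cd3e-low lymphoma reached 100 in Cdkn2a or Farp1, so both passed this filter only through the Cd3e-high set. The filter itself thus favoured a difference in this direction for these genes. Xaf1, an interferon-inducible gene linked to cell death, was at 7.85, 6.75 and 8.54 against 11.28, 11.62 and 12.36 (difference -4.05 ± 0.39, adjusted p = 0.00402) and at 11.69 to 12.33 in normal T cells, so here the Cd3e-low set stood apart from both the Cd3e-high and the normal samples. It was the only called member of 23 interferon response genes tested, whose median difference was 0.06. The ubiquitin ligase gene Nedd4 and the small GTPase gene Rhoc were named after their values were seen. Nedd4 differed by -3.79 ± 0.37 (adjusted p = 0.00402) with levels of 6.59, 7.82 and 7.92 against 10.74, 11.17 and 11.96. Rhoc differed by -3.00 ± 0.33 (adjusted p = 0.00588) with levels of 6.78, 8.26 and 7.62 against 10.26, 10.56 and 11.03.

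The other chains of the T cell receptor complex were still measured in the Cd3e-low lymphomas. Cd3d, the partner chain encoded beside Cd3e, was at 10.53, 8.62 and 10.58 against 10.27, 11.91 and 12.80, a difference of -1.85 ± 0.61 that was not called (adjusted p = 0.0887). Cd3g was at 12.74, 10.96 and 10.14 against 10.86, 12.85 and 13.98 (difference -1.42 ± 0.68, adjusted p = 0.209), and mPTCL 3 and 4 lay inside the range of the Cd3e-high set. Cd247 was at 11.40, 10.72 and 7.01 against 9.98, 10.56 and 10.95 (difference -0.82 ± 0.79, adjusted p = 0.534). For Cd247 mPTCL 3 lay above the Cd3e-high range, mPTCL 4 inside it and mPTCL 5 below it. Without mPTCL 5 the sign of the Cd247 difference turned, to 0.53. None of the 4 tested members of the T cell receptor and CD3 list was called, 1 of them being lower at an unadjusted p under 0.05. Of the 20 named genes nearest to Cd3e on its chromosome, 10 on either side, 18 were on the array, 11 were tested and 0 were called by limma, with 2, Cd3d and Kmt2a, at an unadjusted p under 0.05. Apart from Cd3d and Cd3g, their differences ran from -0.50 to 1.49. On the side of Cd3e away from Cd3d, only Mpzl3 and Il10ra were tested, so that side was little measured. Their means were low, at 6.66 and 6.95 in the Cd3e-low set and 6.11 and 7.45 in the Cd3e-high set.

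Proximal signalling genes were lower in part. Of 35 tested members of this list 4 were called lower (all genes: 3.29%) and 0 higher, with 4 members higher at an unadjusted p under 0.05, and the median difference was -0.27 against 0.03 over all genes. Without mPTCL 2, 4 or 8, or with the mean level of listed B cell markers as a covariate, limma called 0 of them, 6 or 7 being lower and 4 higher at an unadjusted p under 0.05, and without mPTCL 6 it called 2 lower. Zap70, the kinase that binds the phosphorylated chains, was at 5.60, 7.64 and 9.18 against 10.86, 11.14 and 11.83, a difference of -3.78 ± 0.62 (adjusted p = 0.026), with no overlap between the sets. Skap1, an adaptor that links the receptor to integrins, was at 6.16, 5.90 and 9.07 against 10.64, 11.62 and 12.17 (difference -4.43 ± 0.65, adjusted p = 0.0213). Fyn differed by -2.49 ± 0.58 (adjusted p = 0.0392) and Sh2d2a, an adaptor of activated T cells, by -2.95 ± 0.55 (adjusted p = 0.0317). mPTCL 3 was lowest of all 9 lymphomas in Zap70 and Fyn. For Zap70, Skap1 and Fyn every lymphoma lay below the normal T cell arrays, which were at 11.97 to 12.56 in the case of Zap70. Lat, the adaptor downstream of Zap70, was at 11.40, 10.76 and 9.09 against 8.41, 12.22 and 12.98 and was not called (adjusted p = 0.402).

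**Figure D2:**
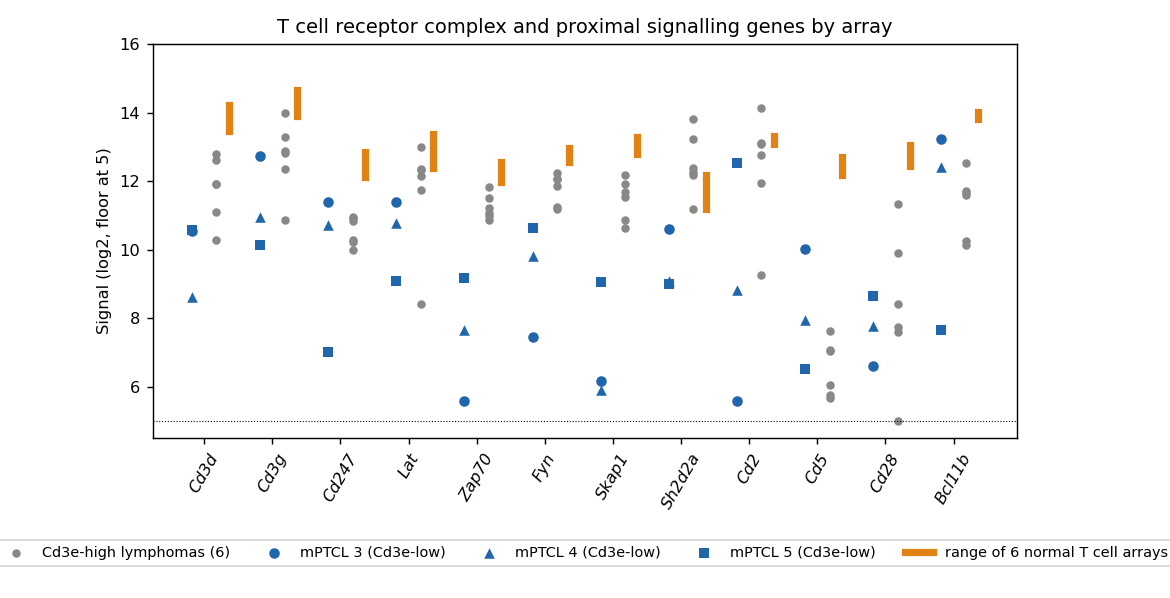
Log2 signal of 12 T cell genes in each array. Blue symbols are the 3 Cd3e-low lymphomas, grey dots the 6 Cd3e-high lymphomas and orange bars the range of 6 normal T cell arrays, and the dotted line is the floor of 5. Zap70, Fyn, Skap1 and Sh2d2a do not overlap between the sets, whereas Cd3d, Cd3g and Lat do.

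No listed surface receptor that marks T cells was called. Of 16 coreceptor and pan-T genes tested with limma, 0 passed, and 1 was lower and 1 higher at an unadjusted p under 0.05. Cd2, an adhesion receptor of T and NK cells, varied widely, at 5.58, 8.82 and 12.54 against 9.25, 12.93 and 14.14 (difference -3.40 ± 1.38, adjusted p = 0.148). Cd4 was at 6.13, 5.00 and 8.34 in the Cd3e-low set and at the floor in 3 of the 6 Cd3e-high lymphomas (mPTCL 7, 8 and 9). In mPTCL 1, 2 and 6 it was at 9.075, 10.50 and 10.15, above each Cd3e-low lymphoma (difference -0.96 ± 1.48, adjusted p = 0.713). Cd8a was at 10.36, 8.46 and 8.34 against 7.91, 9.51 and 13.13. Ctla4, an inhibitory receptor of activated and regulatory T cells, was above all Cd3e-high lymphomas in all 3 members, at 10.10, 9.83 and 12.95 against 5.00, 7.80 and 9.51, but was not called (difference 3.50 ± 1.06, adjusted p = 0.074).

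Several cytotoxic effector genes were lower in all 3 Cd3e-low lymphomas. Of 20 tested, 5 were called lower (all genes: 3.29%) and 0 higher, 11 were lower and 1 higher at an unadjusted p under 0.05, and the median difference was -1.51. Leaving out mPTCL 2, 4 or 8 left 2 called lower, mPTCL 6 left 3, and the B cell marker mean as a covariate left 1. Over the 9 fits without 1 lymphoma the median ran from -1.92 to -1.33. It was -1.73 without the 3 lymphomas highest in B cell markers, a fit that leaves mPTCL 3 as the only Cd3e-low lymphoma. The mean level of the 24 listed genes on the array was 8.56, 8.53 and 8.12 in the Cd3e-low set and 9.80 to 10.91 in the Cd3e-high set, so the sets did not overlap. Normal T cells lay between, at 9.02 to 9.27. Besides Gzmk and Fasl the called members were Gzmb, Nkg7 and Ccl5. Gzmb, the main granule protease of killer cells, was at 10.81, 6.89 and 7.59 against 10.41, 14.44 and 15.17 (difference -5.05 ± 1.20, adjusted p = 0.0401), and mPTCL 3 lay above the lowest Cd3e-high lymphoma. The granule membrane gene Nkg7 differed by -3.97 ± 0.57 (adjusted p = 0.0213), and the chemokine gene Ccl5 by -4.12 ± 0.80 (adjusted p = 0.0317), each without overlap. Gzma, another granule protease, was an exception at 14.99, 15.15 and 10.45 against 13.35, 15.21 and 15.59 (difference -1.43 ± 0.94, adjusted p = 0.35), as mPTCL 3 and 4 lay within the Cd3e-high range. The sets overlapped in the perforin gene Prf1, at 5.87, 6.47 and 7.05 against 6.70, 8.12 and 10.01 (difference -1.72 ± 0.73, adjusted p = 0.166). Gzmm, named after its values were seen, was at 5.53, 5.00 and 6.95 against 6.60, 10.45 and 13.04 (difference -4.65 ± 1.24, adjusted p = 0.0539).

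The T-box factors that drive this programme in killer lymphocytes were lower too. Tbx21 was at 7.79, 7.88 and 6.91 against 9.76, 11.61 and 12.65 (difference -3.84 ± 0.67, adjusted p = 0.0303), below resting T cells at 8.91 to 9.63 in each member. Eomes was at 5.00, 5.25 and 7.19 against 6.96, 10.87 and 12.45 (difference -4.65 ± 1.06, adjusted p = 0.0386), and mPTCL 5 lay just above mPTCL 6. They were the 2 called of 20 effector and innate-like regulators tested, of which 0 were called higher and 2 were higher at an unadjusted p under 0.05, and the median of that list was -0.03. Il2rb, a receptor chain for the growth factors IL-2 and IL-15, was at 10.12, 10.09 and 9.50 against 10.89, 11.98 and 12.63 (difference -1.99 ± 0.38, adjusted p = 0.0317). Of 32 cytokine receptor and JAK-STAT genes tested, Il2rb was the 1 called lower and the kinase gene Jak2 the 1 called higher (2.42 ± 0.62, adjusted p = 0.048), shares near those of all genes (3.29% and 1.95%).

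**Figure D3:**
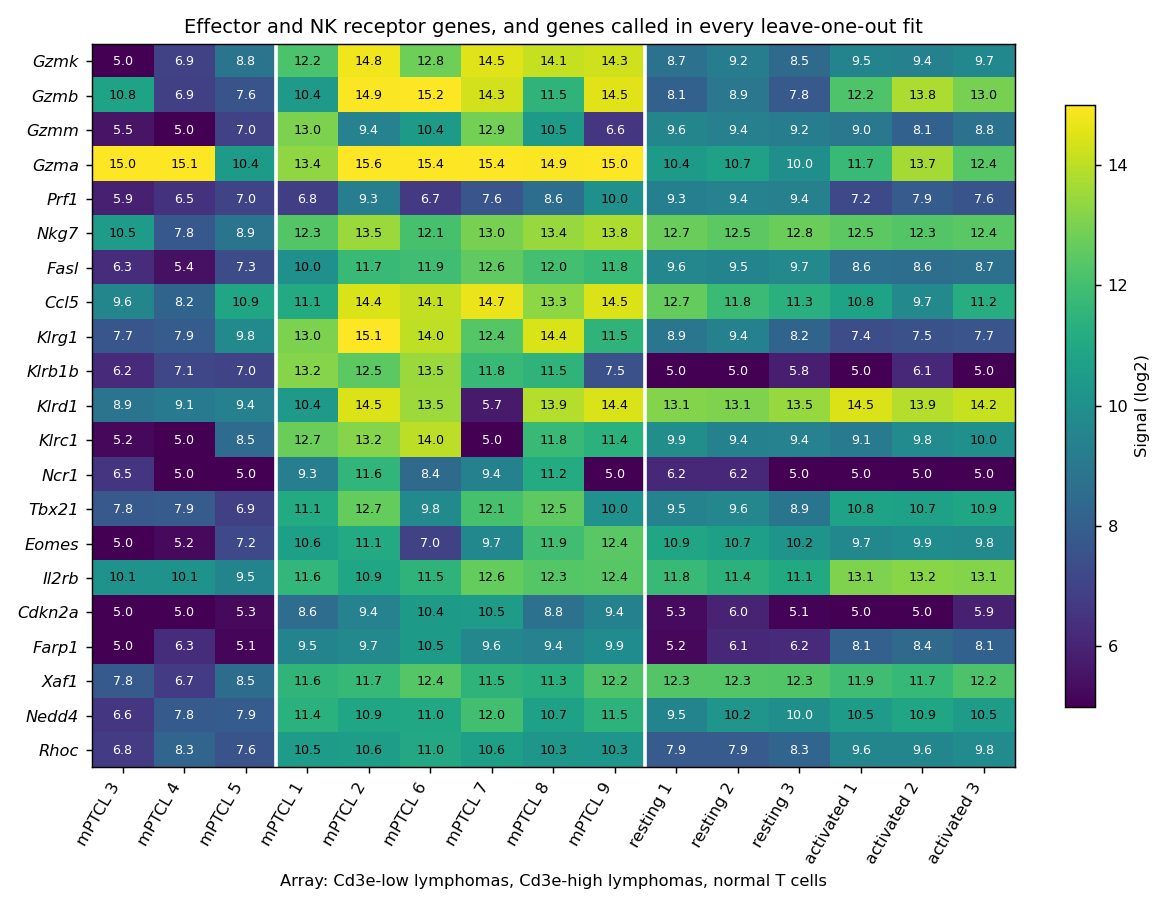
Log2 signal of effector, NK receptor and related genes (rows) in each array (columns), with the Cd3e-low lymphomas on the left, the Cd3e-high ones in the middle and normal T cells on the right. Printed numbers are the plotted values, and 5.0 is the floor; Gzma is at 15.0 and 15.1 in mPTCL 3 and 4. Klrc1 was included after its values were seen.

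NK cell receptors, which many effector T cells also carry, had a median difference of -2.41 over 19 tested genes, of which 2 were called lower (all genes: 3.29%) and 1 higher (1.95%). At an unadjusted p under 0.05, 8 were lower and 2 higher. Without mPTCL 2, 4 or 8 and with the B cell marker mean as a covariate limma called 0, 7 to 9 being lower at an unadjusted p under 0.05, while it called 1 lower without mPTCL 3, 5 or 6, 3 without mPTCL 9 and 5 without mPTCL 7. Klrg1, an inhibitory receptor of late effector cells, was at 7.68, 7.90 and 9.78 against 11.52, 13.54 and 15.06 (difference -4.96 ± 0.77, adjusted p = 0.0223). Klrb1b was at 6.19, 7.12 and 7.04 against 7.50, 12.14 and 13.51 (difference -4.88 ± 1.11, adjusted p = 0.0385), and the lowest Cd3e-high value, in mPTCL 9, was close to the Cd3e-low lymphomas. The called gene in the other direction was Slamf6, a receptor of the SLAM family found on T, B and NK cells, at 11.75, 11.45 and 10.94 against 6.18, 6.38 and 10.35 (difference 4.34 ± 0.85, adjusted p = 0.0317). Its highest Cd3e-high value was that of mPTCL 1, and normal T cells, at 11.01 to 12.11, overlapped the Cd3e-low set. Klrd1 was at 8.86, 9.13 and 9.37 against 5.71, 13.72 and 14.46 (difference -2.95 ± 1.72, adjusted p = 0.294) and the NK cell receptor Ncr1 at 6.54, 5.00 and 5.00 against 5.00, 9.33 and 11.57 (difference -3.63 ± 1.22, adjusted p = 0.094). mPTCL 7, at 5.71, was lowest of all lymphomas in Klrd1, so a low Klrd1 level also occurred in the Cd3e-high set.

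Of 11 adaptors and kinases of the motif-bearing receptors, 2 were called higher (all genes: 1.95%), Btk (3.32 ± 0.76, adjusted p = 0.0386) and Fes (3.45 ± 0.84, adjusted p = 0.0415), and 0 lower, with 1 lower and 4 higher at an unadjusted p under 0.05. Neither direction had a call by limma without mPTCL 2, 3, 4, 5, 6, 7 or 8 in turn, with 3 or 4 higher at an unadjusted p under 0.05, nor with the B cell marker mean as a covariate, with 3. The median difference of these genes was 1.92, and it was 0.68 without mPTCL 5 and 0.47 with the covariate. Without the 3 lymphomas highest in B cell markers, where mPTCL 3 alone was Cd3e-low, the median was 0.88. Syk, the kinase that takes the place of Zap70 in B cells and myeloid cells, was at 10.44, 10.62 and 11.76 against 5.00, 7.41 and 10.10 without overlap but was not called (difference 3.58 ± 1.10, adjusted p = 0.0773). The adaptor Tyrobp was at 12.96, 13.09 and 11.25 in the Cd3e-low set and spread over 6.25 to 13.65 in the Cd3e-high set, with mPTCL 6 and 7 low.

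The promoters of Gzmk and Nkg7 are shown because these effector genes were lower together with Tbx21 and Eomes and their windows hold the T-box core letters GGTGTGA, in capitals. The windows run from 250 bases before to 50 after the RefSeq start on GRCm38.p6, and lie at chr13:113180916-113181215 on the minus strand for Gzmk and chr7:43436888-43437187 on the plus strand for Nkg7. The match begins at position -75 from the start for Gzmk and -13 for Nkg7.
Gzmk: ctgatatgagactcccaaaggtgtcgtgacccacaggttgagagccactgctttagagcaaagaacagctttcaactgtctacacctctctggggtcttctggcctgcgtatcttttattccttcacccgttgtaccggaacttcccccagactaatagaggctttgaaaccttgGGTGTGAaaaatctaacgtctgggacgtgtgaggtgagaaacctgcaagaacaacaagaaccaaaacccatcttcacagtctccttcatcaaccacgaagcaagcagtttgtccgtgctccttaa
Nkg7: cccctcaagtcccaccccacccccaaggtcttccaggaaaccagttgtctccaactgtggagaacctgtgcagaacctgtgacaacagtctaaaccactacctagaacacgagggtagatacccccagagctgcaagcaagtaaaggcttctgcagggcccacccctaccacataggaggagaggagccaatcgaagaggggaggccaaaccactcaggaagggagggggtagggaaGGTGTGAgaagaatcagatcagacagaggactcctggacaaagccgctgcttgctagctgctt
The letters were chosen after the calls were seen and were searched on both strands (GGTGTGA or TCACACC). They occurred in 11 of 278 windows of genes called lower (3.96%), 8 of 183 called higher (4.37%) and 386 of 9016 tested (4.28%). A match was no more common among genes called lower than among the genes tested. Of the named called genes, Dkc1 and Gstm5, called lower, and Myb and Bcl11a, called higher, held the letters too. A match is a string of letters and no measure of binding.

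Some genes of dividing cells were called lower. Of 28 tested genes of DNA replication and S phase, 9 were called lower (all genes: 3.29%) and 0 higher, 22 were lower and 0 higher at an unadjusted p under 0.05, and the median difference was -1.12. With each array centred on its median 14 were called lower, and the list's median was -1.15 relative to all genes. Without mPTCL 2, 4 or 8 limma called 0 S phase genes (22, 18 and 22 lower at an unadjusted p under 0.05), without mPTCL 5 or 6 it called 1, without mPTCL 9 it called 6, and without mPTCL 1 or 3 it called 14 and 15. With the B cell marker mean as a covariate it called 0 (21 lower at an unadjusted p under 0.05). The median ran from -1.37 to -0.91 over the 9 fits without 1 lymphoma. It was -0.66 without the 3 lymphomas highest in B cell markers, where mPTCL 3 alone was Cd3e-low. Cdc6, which loads the replicative helicase, was at 9.35, 8.36 and 8.46 against 10.40, 11.05 and 11.38 (difference -2.26 ± 0.31, adjusted p = 0.0183). The helicase subunit gene Mcm5 differed by -1.46 ± 0.29 (adjusted p = 0.0331) and the DNA ligase gene Lig1 by -1.45 ± 0.30 (adjusted p = 0.0355). Of 28 genes of G2 and M phase, 5 were called lower and 0 higher (25 and 0 at an unadjusted p under 0.05), with a median of -1.46. Limma called 0 of these without mPTCL 2, 4, 5, 6 or 8 in turn (13 to 23 lower at an unadjusted p under 0.05). It called 0 with the B cell covariate (20), but 8 without mPTCL 3 and 9 without mPTCL 7. In the fit with mPTCL 3 alone as Cd3e-low the median was -0.92. Hmmr, a spindle protein gene, differed by -2.03 ± 0.38 (adjusted p = 0.0317), the cyclin gene Ccna2 by -1.94 ± 0.42 (adjusted p = 0.037) and the survivin gene Birc5 by -1.70 ± 0.39 (adjusted p = 0.0388).
The Cd3e-low lymphomas held more cell cycle RNA than resting T cells: the mean of the S phase genes was 11.04, 10.19 and 10.52 in them, 11.27 to 12.10 in the Cd3e-high set and 9.04 to 9.15 in resting T cells. Activated T cells, at 10.4 to 10.7, lay within the range of the Cd3e-low set. In the mean of the G2 and M phase genes activated T cells, at 11.01 to 11.17, were above the Cd3e-low set, at 9.05 to 10.42. In sorted bulk samples, fewer cells of a kind and less RNA per cell cannot be told apart.

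Myc, the growth-promoting transcription factor, was at 11.81, 10.71 and 10.87 against 12.06, 13.10 and 13.73 (difference -1.79 ± 0.42, adjusted p = 0.0393). Of 24 genes of the Myc and ribosome biogenesis list, 3 were called lower (all genes: 3.29%) and 0 higher (17 and 0 at an unadjusted p under 0.05), the other called members being Srm, the spermidine synthase gene (-2.25 ± 0.35, adjusted p = 0.0223), and Dkc1, a component of telomerase and ribosomal RNA modification (-1.18 ± 0.26, adjusted p = 0.037). Limma called 0 of the list without mPTCL 2, 4 or 8 (16, 13 and 15 lower at an unadjusted p under 0.05), 1 without mPTCL 5, 6 or 7, and 8 without mPTCL 3 or 9. It called 0 with the B cell covariate (13 lower at an unadjusted p under 0.05). The median of the list was -0.79. Without the 3 lymphomas highest in B cell markers, where mPTCL 3 alone was Cd3e-low, it was -0.60. Resting T cells were at 11.24 to 11.49 in Myc, below mPTCL 3 and above mPTCL 4 and 5.

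The 10 largest increases and decreases were taken among called genes whose sets did not overlap. Among these increases, Napsa, an aspartic protease gene, was at 13.69, 13.50 and 12.70 against 6.73, 8.31 and 12.18 (difference 4.69 ± 0.97, adjusted p = 0.0355). Chrna9, an acetylcholine receptor subunit gene, was at 11.04, 9.12 and 8.20 against 5.00, 5.00 and 6.35 (difference 4.12 ± 0.61, adjusted p = 0.0213), and 4 of the Cd3e-high lymphomas were at the floor. Fbp1, a gluconeogenic enzyme gene, was at 8.36, 8.74 and 10.26 against 5.07, 5.21 and 6.04 (difference 3.76 ± 0.47, adjusted p = 0.0145). No Cd3e-high lymphoma reached a signal of 100 in Chrna9 or Fbp1. Both passed the filter on low signals only through the 3 Cd3e-low lymphomas, so their lack of overlap was set by that filter. Igfbp4 was at 12.38, 10.42 and 9.78 against 6.43, 6.79 and 8.49 (difference 3.69 ± 0.65, adjusted p = 0.0307) and normal T cells were at 12.21 to 14.64. It was the 1 called of 16 naive and memory T cell genes. Cpne2 (4.41 ± 0.72), Wdfy4 (4.39 ± 1.01), Alox5ap (3.97 ± 0.98), Lmo7 (3.69 ± 0.78) and Bcl11a (3.66 ± 0.85), a transcription factor of lymphoid progenitors and B cells, completed the list with Slamf6. The highest Cd3e-high value was that of mPTCL 1 in Napsa, Slamf6, Wdfy4 (10.87), Alox5ap (12.26), Lmo7 (7.52) and Bcl11a (9.14). The lowest Cd3e-low values of the last 4 were close to it, at 11.75, 12.76, 7.81 and 9.62. In Cpne2, Chrna9, Fbp1 and Igfbp4 another Cd3e-high lymphoma was highest. The remaining genes among the 10 decreases were Gstm5 (-4.99 ± 1.23), F2r (-4.71 ± 0.64), a thrombin receptor, and Ifitm10 (-4.53 ± 0.93), which was at the floor in all 3 Cd3e-low lymphomas. Like Cdkn2a and Farp1, Gstm5 and Ifitm10 passed the filter only through the Cd3e-high lymphomas, as no Cd3e-low lymphoma reached 100.

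The calls were also set against normal T cells. For 296 of the 364 genes called lower (81.3%) the Cd3e-high mean lay above all 6 normal arrays. For 124 of them (34.1%) the Cd3e-low mean lay below all 6. For 155 of the 216 genes called higher (71.8%) the Cd3e-low mean lay above all 6 normal arrays. For 123 of them (56.9%) the Cd3e-high mean lay below all 6. The same shares over all genes tested were not counted, so these counts have no background.

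The 3 Cd3e-low lymphomas were not alike. Across the tested genes mPTCL 3 and 4 correlated at 0.852 and mPTCL 4 and 5 at 0.867, but mPTCL 3 and 5 at 0.759, against 0.818 to 0.914 within the Cd3e-high set. mPTCL 3 correlated more with each Cd3e-high lymphoma, at 0.779 to 0.813, than with mPTCL 5, and pairs across the sets ran from 0.727 to 0.852. These correlations are over genes of one array platform and describe likeness only. Rag1, Rag2, Ptcra, Cd34, Il2ra and Sox4, described next, and Ms4a1, plotted with them, were named after their values were seen. Rag1, which recombines receptor genes in immature lymphocytes, was at 12.85, 10.32 and 5.00 and reached at most 6.28 in the Cd3e-high set and 6.67 in normal T cells. Rag2, its partner, was at 9.59, 6.18 and 5.00 and at the floor in all 6 Cd3e-high lymphomas. Ptcra, the invariant chain of the pre-T cell receptor of thymocytes, was at 9.45, 8.33 and 6.22 against 5.00, 5.42 and 6.43, and the progenitor antigen Cd34 at 8.12, 7.05 and 6.04 against 5.00, 5.00 and 5.76. Rag1, Rag2, Ptcra and Cd34 did not pass the filter on low signals and were not tested.

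Further genes of early T cell development were high in mPTCL 3 and 4 alone among the members. Normal T cells had some of these too, with Il7r at 13.06 to 13.87 and Notch1 at 10.82 to 11.68, but Kit at 5.11 to 7.17. Kit, the stem cell factor receptor, was at 11.04, 10.52 and 7.25 against 5.00, 6.51 and 7.82 (difference 3.25 ± 0.92, adjusted p = 0.0627). Notch1, the receptor that commits progenitors to the T lineage, was at 12.62, 12.46 and 8.39 against 8.12, 8.87 and 9.44 (difference 2.33 ± 0.81, adjusted p = 0.103). Il7r was at 13.42, 12.71 and 8.60 against 5.01, 7.28 and 10.70 (difference 3.86 ± 1.30, adjusted p = 0.0944), and Il2ra at 13.26, 10.64 and 5.33 against 5.00, 5.98 and 9.85. Sox4 was at 13.50, 12.30 and 6.98, with mPTCL 1 at 12.50. The gamma chain segment Trgv1 was at 14.71, 14.46 and 7.17 and Cd163l1, a scavenger receptor of gamma-delta T cells, at 14.41, 12.25 and 5.00. Both also reached high levels in single Cd3e-high lymphomas, Trgv1 with 13.20 in mPTCL 9 and Cd163l1 with 12.75 in mPTCL 1. 0 of 4 gamma-delta genes tested were called by limma, and 1 was higher at an unadjusted p under 0.05. Of 18 progenitor and early lymphoid genes 14 were tested and 0 called, with 5 higher at an unadjusted p under 0.05 and a median of 2.47. The mean of the 18 was 8.76, 9.00 and 8.17 in the Cd3e-low set, above the 5.59 to 7.61 of the Cd3e-high set in each member. In mPTCL 5 that mean stood beside Rag1 at the floor and the highest B cell marker mean of all 9 lymphomas. With the B cell marker mean as a covariate the list's median was 1.27. Without the 3 lymphomas highest in B cell markers, where mPTCL 3 alone was Cd3e-low, it was 1.17. Myb, a transcription factor of progenitors, was called higher at 13.26, 12.22 and 10.28 against 7.15, 9.02 and 9.84 (difference 3.08 ± 0.72, adjusted p = 0.0388), and Ikzf3, which acts in mature lymphocytes, lower at 8.61, 9.41 and 12.53 against 12.23, 13.20 and 13.87 (difference -2.94 ± 0.72, adjusted p = 0.0422). Myb and Ikzf3 were the 2 called of 20 T lineage transcription factors. Normal T cells were at 9.70 to 12.37 in Myb and at 11.61 to 13.51 in Ikzf3.

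mPTCL 5 had another pattern, with the lowest level of Bcl11b, a factor that holds the T cell identity, of all 9 lymphomas (13.24, 12.43 and 7.66 against 10.13, 11.61 and 12.54), and the highest of Cd79a, Ebf1 and Pax5, which define B cells, at 11.73, 11.35 and 10.54. The Cd79a level was 5.05 in mPTCL 3 and 7.83 in mPTCL 4. Set against the label of a T cell lymphoma, mPTCL 5 had both Cd3g, at 10.14, and these B cell genes. That was not particular to mPTCL 5. The Cd3e-high mPTCL 1 had Cd3g at 12.88 and Cd79a, Ebf1 and Pax5 at 9.47, 8.78 and 9.73.

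**Figure D4:**
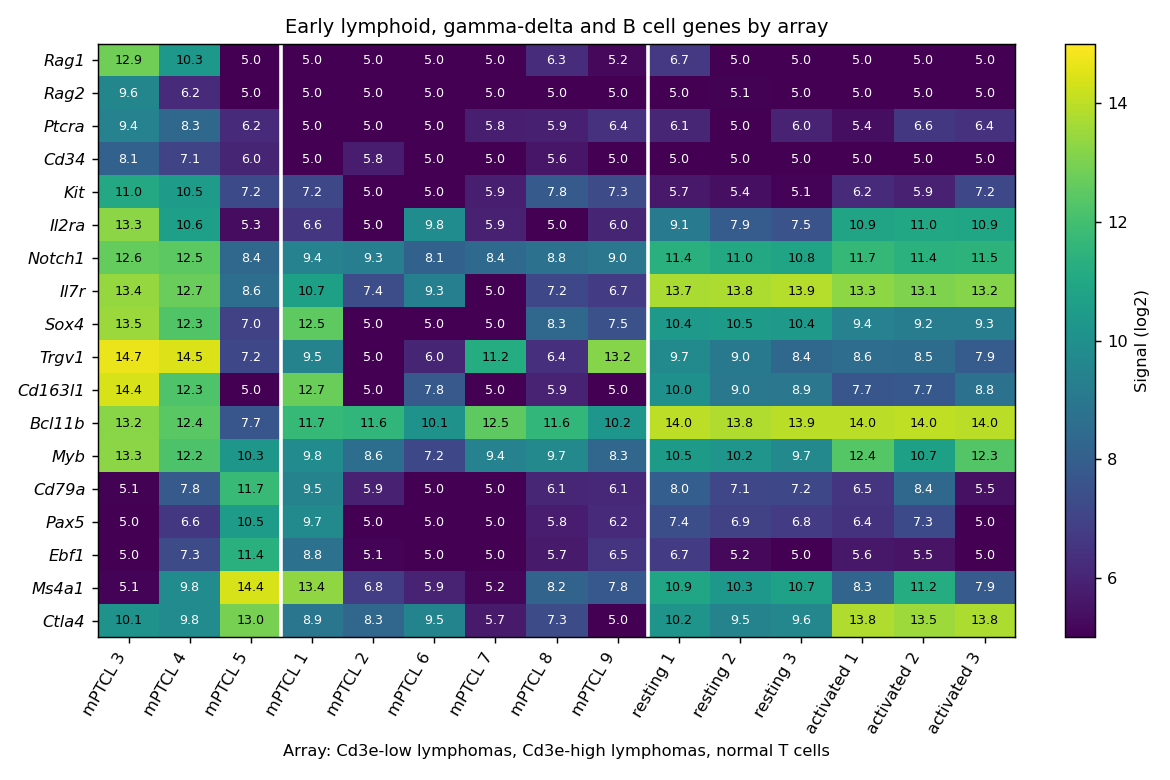
Log2 signal of early lymphoid, gamma-delta and B cell genes (rows) in each array (columns), with the Cd3e-low lymphomas on the left, the Cd3e-high ones in the middle and normal T cells on the right. Rag1 is at 12.9 and 10.3 in mPTCL 3 and 4 and at the floor of 5.0 in mPTCL 5, which is highest in Cd79a, Pax5, Ebf1 and Ms4a1.

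Markers of other cell types differed among the lymphomas, in part along the sets. The mean of 19 B cell markers was 7.45, 9.08 and 11.15 in the Cd3e-low set and 6.08 to 10.76 in the Cd3e-high set, the highest of the latter in mPTCL 1. Of 16 B cell markers tested, the 1 called was Spib, a transcription factor of B cells and plasmacytoid cells (3.58 ± 0.93, adjusted p = 0.0495), with 0 lower also at an unadjusted p under 0.05, and their median was 2.17. Of 13 class II and antigen presentation genes H2-DMa alone was called (3.81 ± 0.97, adjusted p = 0.0478), with a list mean of 8.49, 11.70 and 12.74 against 7.10 to 11.21. Of 7 plasma cell markers Mzb1 was called (3.68 ± 0.88, adjusted p = 0.0412), and the immunoglobulin joining chain gene Jchain was at 11.53, 13.88 and 14.64 against 5.00, 7.46 and 12.61 without being called (difference 5.50 ± 1.53, adjusted p = 0.0598). mPTCL 1 was the highest Cd3e-high lymphoma in 121 of the 216 genes called higher (56.0%). How often mPTCL 1 was the highest over all genes tested was not counted. The mean of 15 neutrophil markers was 5.86, 11.46 and 11.94 against 5.92 to 11.14, and that of 21 macrophage and monocyte markers 6.93, 10.68 and 9.30 against 5.68 to 9.03. No neutrophil or macrophage marker was called by limma, with 0 and 2 higher at an unadjusted p under 0.05. In mPTCL 3 several defining markers of B cells and neutrophils were at or near the floor, Cd79a at 5.05, Pax5 at 5.00, Ebf1 at 5.00, Elane at 5.00 and S100a8 at 6.06, while others were not, such as Spib at 10.06 and Chil3 at 11.26.
With the B cell marker mean as a covariate limma called 6 genes lower and 0 higher, against 1161 and 774 at an unadjusted p under 0.05. Of the genes stable to leaving out a lymphoma, all but Gzmk (adjusted p = 0.0589) were among those 6. Leaving out the 3 lymphomas highest in B cell markers, mPTCL 1, 4 and 5, left mPTCL 3 as the only Cd3e-low lymphoma. Counts from that fit rest on 1 sample in that set. The part of these cells in the other differences was not tested.

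The RNA also differed between the sets in a measure of quality. The ratio of the 3′ to the 5′ actin control probe sets was 2.23 in mPTCL 3, 2.41 in mPTCL 4 and 2.65 in mPTCL 5, against 1.47 to 1.91 in the Cd3e-high set and 1.26 to 1.54 in normal T cells, so the sets did not overlap. The Gapdh ratio did overlap, with 2.02 to 2.10 against 1.26 to 2.09. With the log2 actin ratio as a covariate, an alternative chosen after the data were seen, limma called 0 genes in either direction, 266 being lower and 162 higher at an unadjusted p under 0.05. In that fit 165 of the 364 genes and 100 of the 216 were still at least 2-fold apart in the same direction. Among named genes Gzmk was at -7.45, Fasl at -4.03, Il2rb at -0.47, Mcm5 at -0.21, Wdfy4 at 0.66 and Slamf6 at 0.96, each with an adjusted p of 1.0, and Sh2d2a, Spib and H2-DMa changed sign. Since the ratio splits the lymphomas the same way as Cd3e does, its share in the differences cannot be told apart from that of the sets.

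**Figure D5:**
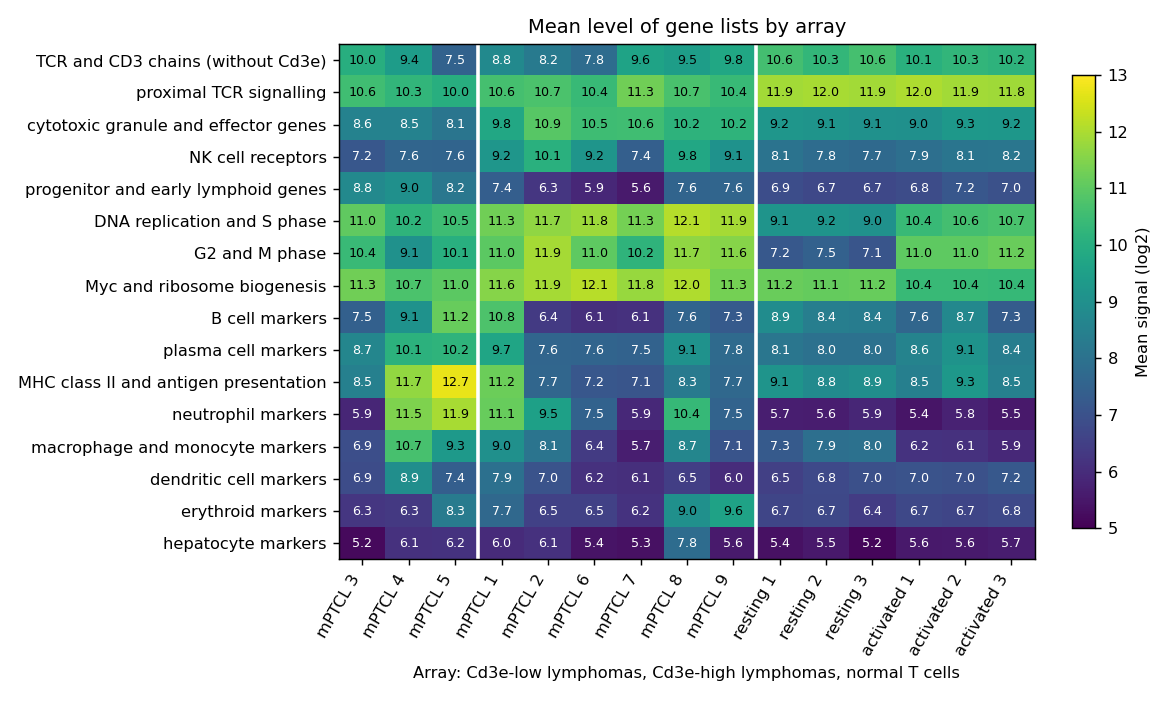
Mean log2 signal of 16 gene lists (rows) in each array (columns), with the Cd3e-low lymphomas on the left, the Cd3e-high ones in the middle and normal T cells on the right. Cytotoxic genes and S phase genes are lower in all 3 Cd3e-low lymphomas than in any Cd3e-high one, while B cell and neutrophil markers overlap between the sets.

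The remaining lists gave 0 calls by limma in both directions: dendritic cell (7 tested), erythroid (11), platelet and mast cell (5), hepatocyte (3), endothelial and stromal (6), glycolysis and hypoxia (19) and immediate early and stress genes (24). At an unadjusted p under 0.05, 2 dendritic cell markers were higher, 1 erythroid marker lower, 1 platelet and mast cell marker higher, 1 hepatocyte marker lower and 2 stromal markers higher, and of the glycolysis genes 4 were lower and 2 higher, and 2 immediate early and stress genes were lower.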

How the data were processed

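Gene expression was measured on 15 oligonucleotide arrays, 1 per sample. The deposited tables hold linear intensity, which the authors made, per the submitters' processing notes, with MAS5 in Affymetrix Expression Console (version 1.1 is named for lymphomas only). Every array had a 2% trimmed mean of 500, as checked on the values, and the number of arrays limits the precision. Per the labels, 50 ng of RNA of normal cells were amplified with a 3′ kit. How RNA of the lymphomas was amplified is not given in the sources used.

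Values below 32 were set to 32 before taking log2. Of 45101 probe sets, 34958 had 1 gene symbol, 932 several and 9211 none, and symbols were updated to RefSeq by gene identifier. Per gene, the probe set with 1 symbol and the highest mean was kept, without the 64 controls, giving 18193 genes. Genes at 100 or more in at least 3 of the 9 lymphomas were tested with limma 3.58.1 (trend) in R 4.3.3 on the lymphoma arrays, without Cd3e. The method was tested on simulated data with independent errors per gene. That setting holds no shared cell content or RNA quality difference, so it cannot speak to calls that move with these. Named genes were a fixed set, the 10 largest called increases and decreases without overlap, up to 4 per list by the moderated t statistic, and the 10 named neighbours on either side of Cd3e. The rule left out controls, predicted and clone names, Xist and Y genes, and receptor or immunoglobulin segments. The 28 lists held 597 entries, 515 of them on the array. The members and lists were chosen with earlier results of these data known. Alternatives changed the floor, filter, scaling, probe set, arrays, variance model and covariates. Promoter windows are from RefSeq.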

Additional observations from a re-analysis of the deposited data

Results flagged for a closer look

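Of 103 values examined within the 6 Cd3e-high lymphomas (72 genes, 28 list means and 3 measures of the arrays), 13 had 1 lymphoma set apart from the other 5, where chance gives about 1 in 20. mPTCL 1 was that lymphoma in Slamf6 (10.35), Spib (10.14), Mzb1 (10.86), H2-DMa (11.15), the B cell marker mean (10.76) and the class II list mean (11.21), all high, and in Fasl (10.02) and Gzma (13.35), both low. mPTCL 7 was set apart by a low mean of NK cell receptors (7.41) and a low Srm level (12.10). mPTCL 9 was low in Klrb1b (7.50) and high in Irs2 (6.13), which was named after its values were seen. mPTCL 8 was high in the mean of hepatocyte markers (7.83).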

How the results depend on the processing

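The main counts were 364 genes lower and 216 higher, and 42 of the gene list members called. Without each lymphoma in turn they ran from 7 to 544 lower, 0 to 374 higher and 3 to 64 list members. With no filter on low signals they were 46 lower, 32 higher and 6 list members, and without the variance trend 146, 75 and 17. Centring on the median gave 723, 129 and 65. All 15 arrays in 1 fit gave 800, 727 and 132, and array weights 1280, 1501 and 214. Without the 3 lymphomas highest in B cell markers the counts were 57, 38 and 15, and with the B cell marker mean as a covariate 6, 0 and 2. The neutrophil marker mean as a covariate gave 227 and 114. Leaving out the 6 lymphomas highest in neutrophil markers left mPTCL 3 against mPTCL 6 and 7 and gave 0, 0 and 0 (536 genes lower and 504 higher at an unadjusted p under 0.05), as did the actin ratio. In both fits without lymphomas high in markers the lone mPTCL 3 was assumed to vary like the other set. The cause was not tested, save that fits without lymphomas have fewer samples. The other floors, filters, scalings and probe set choices kept the counts within 1.5 times, but not always the same genes. With the mean of all probe sets per gene, 233 of the 364 lower and 153 of the 216 higher calls remained. In that fit 12 of the 72 genes examined below were no longer called. Spib, H2-DMa, Jak2 and Ikzf3 were among the calls lost there. Alternatives were examined for 72 genes, 57 called and 15 not called, of which not all are named here. With the actin ratio Sh2d2a turned to 0.203, Spib to -0.207, H2-DMa to -1.143, Cd3g to 0.645, Cd247 to 2.888, Gzma to 3.003 and Ctla4 to -0.843. Without the lymphomas highest in B cell markers Cd3g was at 0.076 and Cd247 at 0.815, and without those highest in neutrophil markers at 0.664 and 0.934. Leaving out 1 lymphoma moved Cd247 between -1.668 and 0.527 and Gzma between -2.239 and 0.110, both highest without mPTCL 5. No paired analysis was possible because the 2 sets of lymphomas share no replicate number. Signals near the floor carry no order, which limits genes such as Rag2 and Cdkn2a.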
